A study of Mus musculus with 15 samples.

Results

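The Krüppel-like factor genes Klf2, Klf3, Klf4, Klf6, Klf7, Klf10 and Klf13 were followed through all 15 arrays of the study. The probe sets (groups of short probes that together measure a transcript) taken were all those annotated to 1 of these 7 genes and to no other gene, of 18194 genes so annotated on the arrays of CD4+ T cells. That gave 23 of 45101 probe sets in CD4+ T cells (1 for Klf2, 7 for Klf3, 2 for Klf4, 5 for Klf6, 4 for Klf7, 1 for Klf10 and 3 for Klf13) and 17 of 22690 in thymocytes, where all 7 genes were again represented.

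CD4+ T cells were sorted from the spleens of N-ras KO mice and WT littermates of the 129/SJ background, 6 to 20 weeks old, and were cultured overnight either with 1 μg/ml each of anti-CD3 and anti-CD28, which engage the T cell receptor and its main costimulatory receptor, or without antibody. The 12 arrays fell into 4 groups of 3, namely stimulated N-ras KO, unstimulated N-ras KO, stimulated WT and unstimulated WT. Unstimulated thymocytes from 1 N-ras KO, 1 H-ras KO and 1 WT preparation, of the same background, aged 6 to 20 weeks by the labels and 6 weeks by the methods, were hybridized to 1 array each. Both knockouts were germline deletions present in every cell of the mouse, so an effect within T cells and an effect of other tissues on them cannot be told apart.

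All values were log2 intensities that had been set relative to a median. In CD4+ T cells each probe set had a median of 0 over the 3 unstimulated arrays of each genotype, and in thymocytes a median of 0 over the 3 arrays. A value therefore gives a distance from that median and not a brightness, the 2 unstimulated genotypes cannot be compared with each other, and a difference between the stimulated genotypes is a difference of distances from 2 separate baselines. Intervals, p-values and overlaps between the stimulated genotypes take those baselines as fixed and leave out their spread. Neither T cell identity nor any level could be checked in absolute terms for the same reason. Fewer cells of a type and less RNA per cell cannot be told apart in such bulk samples.

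Nras, the gene deleted in the N-ras KO mice, went against the labels on some arrays. On the probe set 1454060_a_at the arrays labelled N-ras KO replicate 3 read 2.09 stimulated and 2.04 unstimulated, against 0.51 and 0.08 stimulated and 0.00 and −0.04 unstimulated in the other N-ras KO replicates, and the arrays labelled WT replicate 1 read −3.04 stimulated and −2.68 unstimulated, against −0.10 and 0.00 stimulated and 0.28 and 0.00 unstimulated in the other WT replicates. The other 2 Nras probe sets differed less. On 1422688_a_at N-ras KO replicate 3 read 0.80 stimulated and 1.21 unstimulated and WT replicate 1 read −1.23 in both conditions. On 1422687_at N-ras KO replicate 3 read 1.21 and 1.70, whereas WT replicate 1 read −0.14 stimulated, between the other stimulated WT arrays (0.38 and −0.19), and −1.61 unstimulated. In thymocytes Nras on 1454060_a_at was 5.21-fold lower in the N-ras KO array than in WT, as labelled. Hras was not read, so the label of the H-ras KO array was not checked in this way. Counts of member probe sets called in CD4+ T cells, and the values of those called, are given with and without these arrays. Calls in other gene lists, the activation genes among them, are given with all arrays only. The methods describe separate mice for each condition of each repetition and also a splitting of sorted cells into the 2 conditions, so whether same-number arrays share a mouse is open and p-values measure the spread between these samples, which may be partly technical.

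Krüppel-like factors are transcription factors with zinc fingers at their carboxyl end that bind GC-rich and CACCC-containing DNA. In T cells KLF2 is known for holding naive cells in quiescence and for driving the receptors that take them through lymph nodes, and it is known to be lost from strongly activated cells. KLF4 is known as a brake on proliferation, KLF3 as a repressor that recruits CtBP, KLF6 as a rapidly inducible factor of many tissues, KLF10 as a target of TGF-β signalling, and KLF13 as an activator of the chemokine gene Ccl5 late in T cell activation, while KLF7 is best known from neurons.

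The 200 bases upstream of the annotated start are shown for the 3 genes whose probe sets were lower in both KO thymocyte arrays (Klf2, Klf4 and Klf6) and for Klf13, whose probe sets were not, as in RefSeq on GRCm38.p6. Promoters were matched for 6 of the 7 genes. Each is written 5′ to 3′ on the strand of the gene, and capitals mark the 2 elements that the family itself is known to bind, the GC box (GGGCGG) and the CACCC box (CACCC), on either strand and merged where they overlap. The stretches lie at chr8:72318862-72319061 on the plus strand (Klf2), chr4:55532476-55532675 on the minus strand (Klf4), chr13:5861289-5861488 on the plus strand (Klf6) and chr7:63938916-63939115 on the minus strand (Klf13).
Klf2: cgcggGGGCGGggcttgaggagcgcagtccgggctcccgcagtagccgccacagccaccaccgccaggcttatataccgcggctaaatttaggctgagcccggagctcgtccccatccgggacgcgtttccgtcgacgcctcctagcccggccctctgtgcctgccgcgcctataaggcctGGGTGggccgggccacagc
Klf4: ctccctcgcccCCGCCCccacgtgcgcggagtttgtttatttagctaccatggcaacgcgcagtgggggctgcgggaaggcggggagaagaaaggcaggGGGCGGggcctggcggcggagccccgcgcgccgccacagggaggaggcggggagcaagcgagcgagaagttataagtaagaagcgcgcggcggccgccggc
Klf6: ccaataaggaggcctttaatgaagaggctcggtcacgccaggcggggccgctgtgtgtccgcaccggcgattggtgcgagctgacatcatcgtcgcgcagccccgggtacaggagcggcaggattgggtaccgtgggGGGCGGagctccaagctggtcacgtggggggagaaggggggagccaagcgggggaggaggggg
Klf13: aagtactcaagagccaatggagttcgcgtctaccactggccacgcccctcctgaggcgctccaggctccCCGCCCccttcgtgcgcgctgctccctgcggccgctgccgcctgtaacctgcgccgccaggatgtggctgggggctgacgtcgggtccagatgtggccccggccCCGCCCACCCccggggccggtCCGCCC

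A GC box was present in 5 of the 6 promoters and in 31% of the 32851 promoters of the table over the same 200 bases. A CACCC box was present in 4 of 6, against 45.5% of all. Klf2 alone of the 6 held a match to the MEF2 site (searched by name as its 10-base consensus, on both strands), CTAAATTTAG starting 118 bases before the gene, and 2.29% of all promoters held one. MEF2 factors are known as activators of Klf2 downstream of the kinase ERK5. Klf13 alone held TGACG, the core of the cAMP response element, which 15.7% of all held. None of the 6 held an AP-1 site (TGANTCA, 5.48% of all), a CArG box (by name, 1.18%) or the heat shock element as searched here (GAANNTTC, 5.36%), which says only that those letters were not in these windows.

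In thymocytes, Klf2, Klf4 and Klf6 were lower in both KO arrays than in the WT array by 1.5-fold or more on every probe set that measured them, and the other 4 genes stayed within 1.5-fold. With 1 array per genotype there was no replicate check and no test, and both comparisons share the WT array. Of the 17 member probe sets, 6 (35.3%) were at least 1.5-fold lower in the N-ras KO array, where 1.09% of all 22690 probe sets were that much lower, and 6 (35.3%) in the H-ras KO array, where 1.51% were. They were the same 6 probe sets, from 3 genes, and 0 of the 17 were 1.5-fold higher in either, where 1.55% of all were in N-ras KO and 1.47% in H-ras KO. The shares of all include 5379 probe sets that read 0.00 on all 3 arrays and so could not differ.

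Klf4 had the widest differences. Its probe set 1417394_at read −0.56 in the N-ras KO array, 0.00 in the H-ras KO array and 2.18 in the WT array, which made it 6.70-fold lower in N-ras KO (log2 difference −2.74) and 4.53-fold lower in H-ras KO (−2.18). Its other probe set, 1417395_at, read −0.55 in N-ras KO, 0.00 in H-ras KO and 1.30 in WT, with log2 differences of −1.85 and −1.30. Both probe sets placed the WT array highest and the N-ras KO array lowest.

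Klf2, the quiescence factor, read 0.00 in N-ras KO, −0.47 in H-ras KO and 0.77 in WT on its single probe set 1448890_at. It was 1.71-fold lower in N-ras KO (−0.77) and 2.37-fold lower in H-ras KO (−1.25), and here the H-ras KO array was the lowest. Klf6 read −0.31 in N-ras KO, 0.00 in H-ras KO and 0.79 in WT on 1418280_at. The log2 differences of its 3 probe sets were −1.10, −1.21 and −1.10 in N-ras KO and −0.79, −1.07 and −0.89 in H-ras KO, so they lay close together within each knockout.

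The remaining 4 genes moved little. The 4 probe sets of Klf7 all lay above WT in both knockouts, by 0.38 to 0.56 in N-ras KO and 0.19 to 0.42 in H-ras KO on the log2 scale, all under 1.5-fold; the highest, 1419356_at, reached 1.47-fold in N-ras KO and was the member closest to the threshold from inside it. Klf3 differed from WT by −0.05 to 0.38 in N-ras KO and 0.05 to 0.10 in H-ras KO over 3 probe sets. Klf10 read 0.18 in N-ras KO, −0.35 in H-ras KO and 0.00 in WT. The 3 probe sets of Klf13 differed by 0.00 to 0.01 in N-ras KO and −0.01 to 0.17 in H-ras KO. Between the knockouts themselves, H-ras KO minus N-ras KO, none of the 17 probe sets reached 1.5-fold, where 2.42% of all did. The plot of the differences by probe set shows the 3 lower genes apart from the others.

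**Figure D1:**
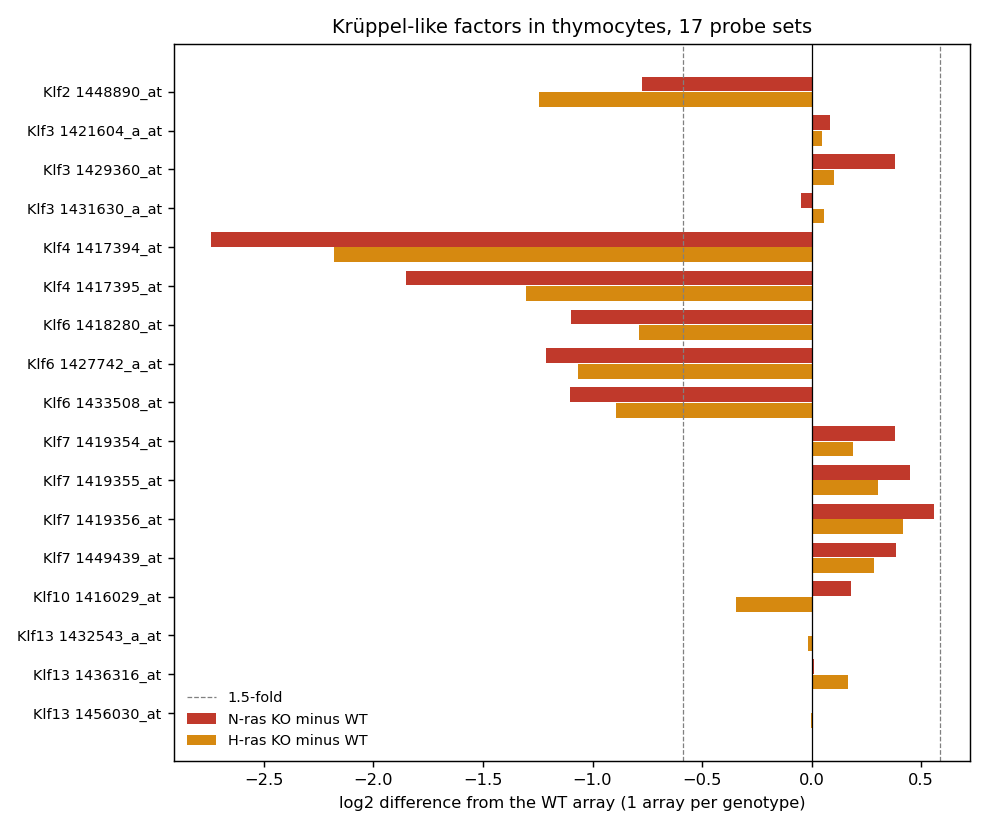
Log2 difference of the N-ras KO array (red) and the H-ras KO array (orange) from the WT array in thymocytes, for each of the 17 probe sets, 1 array per genotype, with dashed lines at 1.5-fold. The bars of Klf2, both Klf4 and all 3 Klf6 probe sets lie beyond the lower line in both knockouts, from −0.77 to −2.74 in N-ras KO and from −0.79 to −2.18 in H-ras KO, and no bar passes the upper line.

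Of 7 other Krüppel-like factor genes measured in thymocytes (Klf1, Klf5, Klf9, Klf12, Klf15, Klf16 and Klf17), 0 reached 1.5-fold on their leading probe set in either knockout. The same was true of 6 Sp factor genes, the nearest relatives of the family, whose differences ran from −0.14 (Sp7) to 0.36 (Sp1) in N-ras KO and from −0.30 (Sp1) to 0.00 (Sp6) in H-ras KO. The leading probe set here was, for each gene, the one with the most specific type of ID and then the lowest number. Both Klf5 probe sets read 0.00 on all 3 arrays, as did 5379 of all 22690 probe sets. Whether such genes were expressed could not be read, so a difference of 0 does not show an unchanged gene.

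Of 7 measured genes that KLF2 is known to control or that belong to the same naive-cell programme, 0 were 1.5-fold lower in N-ras KO, where S1pr1, the receptor through which T cells leave lymphoid tissue, stood at 0.17 and Ccr7, a homing receptor, at −0.18. In H-ras KO 3 were lower, namely Ccr7 (−1.06), Cdkn1a, a cell cycle inhibitor (−1.06), and S1pr1 (−0.83). Their median log2 differences were 0.09 in N-ras KO and −0.33 in H-ras KO, beside 0.00 over all genes in each. Klf2 itself was lower in both arrays.

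The 9 regulators known upstream of Klf2 (Foxo1, Foxo3, Foxp1, the ERK5 kinase gene Mapk7 and its activator Map2k5, and 4 Mef2 genes) had 0 members at 1.5-fold in either knockout. Among 8 corepressor genes used by the family, 1 was higher in N-ras KO, Ctbp2 (0.76), and 0 in H-ras KO, where Ctbp2 stood at 0.28. Of 11 genes of TGF-β signalling, which acts upstream of Klf10, 0 reached 1.5-fold in either knockout.

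Other gene groups were lower together with Klf2, Klf4 and Klf6 on the same arrays. Immediate early genes, which cells switch on within minutes of a stimulus, were lower on 9 of 12 in N-ras KO and 9 of 12 in H-ras KO, with medians of −0.96 and −1.16, and included Fos (−3.54 and −1.63), Jun (−3.39 and −1.80) and Dusp1 (−2.36 and −1.69). Heat shock genes were lower on 6 of 8 in N-ras KO and 3 of 8 in H-ras KO, led by Hspa1b (−4.56 and −3.20) and Hspa1a (−4.04 and −3.52). Granule genes of neutrophils and eosinophils were lower on 8 of 9 in each, with medians of −1.45 and −2.12, led by Prg2 (−2.58 and −2.89).

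Other marker lists moved less. Of 8 monocyte and macrophage markers 1 was lower in each knockout, of 5 B cell markers 0 were lower in N-ras KO and 2 in H-ras KO, and of 7 T cell identity genes 0 reached 1.5-fold in either. The part of these groups in the lower Klf2, Klf4 and Klf6 was not tested. As background, several Krüppel-like factor genes are known to be rapidly inducible in other cell types, which was not examined here.

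**Figure D2:**
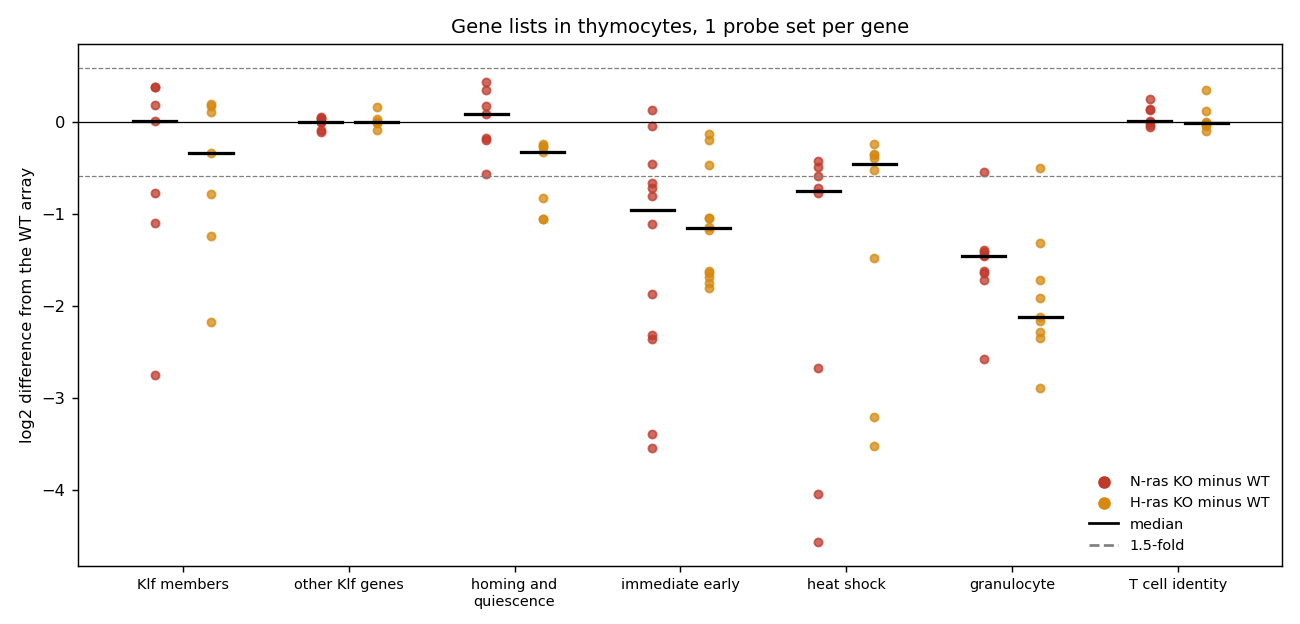
Log2 difference from the WT array in thymocytes for each gene of 7 lists, 1 probe set per gene, N-ras KO in red and H-ras KO in orange, with the list medians as black bars and dashed lines at 1.5-fold. Klf members spread from 0.38 to −2.74 in N-ras KO, other Klf genes stay near 0, and the immediate early, heat shock and granulocyte genes lie mostly below the lower line in N-ras KO.

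In CD4+ T cells, none of the 7 genes was called as changed by overnight stimulation when all arrays were compared as unpaired groups. Of the 23 probe sets, 0 met the study's thresholds (unadjusted p under 0.05 and at least 1.5-fold, here from limma over all 12 arrays) in N-ras KO cells, where 2.34% of all 45101 did, and 0 in WT cells, where 1.04% did. None of the 45101 probe sets passed a Benjamini-Hochberg adjusted p of 0.05 by limma in either response, with 1162 in N-ras KO and 520 in WT cells at an unadjusted p under 0.05. The stimulus registered in the same cultures: by the same thresholds 4 of 12 activation genes were called in N-ras KO cells and 7 of 12 in WT cells, all higher, including Egr2 (5.40 and 2.55 on the log2 scale), Nr4a1 (3.62 and 2.22) and Irf4 (2.39 and 1.59). The smallest adjusted p among the 23 members was 1.00 in each response.

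Klf2 was close to flat. Its log2 values were 0.05, −0.14 and −0.14 in stimulated and 0.26, −0.11 and 0.00 in unstimulated N-ras KO cells. In WT cells they were −0.09, 0.13 and −0.12 stimulated and 0.00, 0.08 and −0.24 unstimulated. Stimulated and unstimulated values overlapped in both genotypes. The response was −0.13 in N-ras KO cells (95% interval −0.54 to 0.28, adjusted p = 1.00 by limma) and 0.02 in WT cells (−0.39 to 0.43, adjusted p = 1.00). Of its 7 measured homing and quiescence genes 0 were called in either genotype, with S1pr1 at −0.24 in N-ras KO and −0.19 in WT cells.

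Klf4 varied widely between arrays. On 1417394_at it read 0.51, 1.13 and −1.47 in stimulated and 0.36, 0.00 and −1.56 in unstimulated N-ras KO cells. In WT cells it read 0.40, 1.03 and 0.77 stimulated and −1.02, 0.00 and 2.15 unstimulated. The unstimulated range was 1.92 in N-ras KO and 3.17 in WT cells, against responses of 0.46 (95% interval −1.46 to 2.37) and 0.36 (−1.56 to 2.27), so a several-fold change in either direction lies within the intervals. Without the arrays of N-ras KO replicate 3 and WT replicate 1 the unstimulated ranges, then of fewer values, were 0.36 and 2.15. The responses were 0.64 (95% interval −0.99 to 2.26) and −0.18 (−1.81 to 1.45).

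Klf6 was the member whose probe sets most often pointed the same way. On 1418280_at it read −0.17, −0.41 and −0.21 in stimulated and 0.00, −0.33 and 0.27 in unstimulated N-ras KO cells. In WT cells it read −0.18, −0.21 and −0.95 stimulated and 0.10, 0.00 and −0.44 unstimulated. Each stimulated array lay below the unstimulated array of the same number in both genotypes, although the groups overlapped. The same held on 4 of its 5 probe sets, and on its remaining probe set, 1433508_at, in 5 of 6 pairs. In N-ras KO cells 1447448_s_at was the 1 member probe set whose groups did not overlap (−0.17, −0.13 and −0.23 stimulated, 0.00, −0.11 and 0.07 unstimulated), as on 4.93% of all probe sets. The mean response over both genotypes on 1418280_at was −0.29 (95% interval −0.70 to 0.13, adjusted p = 1.00 by limma). With the replicate number as a block within genotype its interval was −0.54 to −0.04 (adjusted p = 0.74 by limma), and with the block but without the arrays of N-ras KO replicate 3 and WT replicate 1 the response was −0.24 (−0.59 to 0.10).

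Over all members, 7 of 23 probe sets (30.4%) were lower after stimulation in all 6 same-number pairs, from Klf6 (4), Klf3 (1), Klf7 (1) and Klf13 (1), where 2.13% of all probe sets were, and 0 were higher in all 6, where 2.42% were. The probe sets of a gene measure the same RNA and are not separate observations. Without the arrays of N-ras KO replicate 3 and WT replicate 1, 7 of 23 were lower in all 4 remaining pairs, where 6.69% of all were. After quantile normalization of the arrays 3 of 23 were lower in all 6, where 1.12% were, so the count, though not its place above the share of all probe sets, depended on the scaling of the arrays.

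Stimulated and unstimulated arrays of one number deviated together from their group means in both genotypes, with correlations of 0.36 to 0.63 in N-ras KO and 0.45 to 0.74 in WT cells over all probe sets. A fit with the replicate number as a block within genotype therefore compared the pairs. It called 1 of the 23, Klf6 1427742_a_at, lower in WT cells (−0.71, adjusted p = 1.00 by limma), where it called 2.8% of all probe sets, and in the mean of both genotypes (−0.59, adjusted p = 0.67 by limma), where it called 2.74%. It called 0 in N-ras KO cells, where it called 4.91% of all, and 0 in the difference of the responses, where it called 4.12%. In the fit without the block the mean response called 0 of 23, where 1.41% of all were called. By an unadjusted p under 0.05 alone, 5 of 23 members passed in the mean response with the block, all lower (3 of Klf6, 1 of Klf3 and 1 of Klf7), where 6.59% of all probe sets passed, and 0 without it, where 2.05% did.

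Without the arrays of N-ras KO replicate 3 and WT replicate 1, an alternative added after the values were seen, the fit with the block called 1 member in each genotype. Klf6 1427742_a_at was again lower in WT cells (−0.68, adjusted p = 0.99 by limma), where 3.94% of all probe sets were called, and Klf10 was higher in N-ras KO cells (0.73, adjusted p = 0.68 by limma), where 5.96% were. It called 0 in the mean response, where 3.32% were called and Klf6 1427742_a_at stood at −0.46, and 0 in the difference of the responses, where 5.64% were. Without the block and without those arrays 0 of 23 were called in either response, where 3.11% of all were in N-ras KO and 1.65% in WT cells.

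Klf6 1427742_a_at read 0.15, −0.18 and −2.03 in stimulated and 0.45, 0.00 and −1.08 in unstimulated N-ras KO cells. In WT cells it read −0.75, −0.91 and 0.06 stimulated and 0.00, −0.40 and 0.92 unstimulated. Replicate 3 stood far below the other N-ras KO arrays and above the other WT arrays in both conditions, whereas on 1418280_at WT replicate 3 was the lowest WT array in both conditions. The Klf6 probe sets thus had the same sign of response and different rankings of the replicates.

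**Figure D3:**
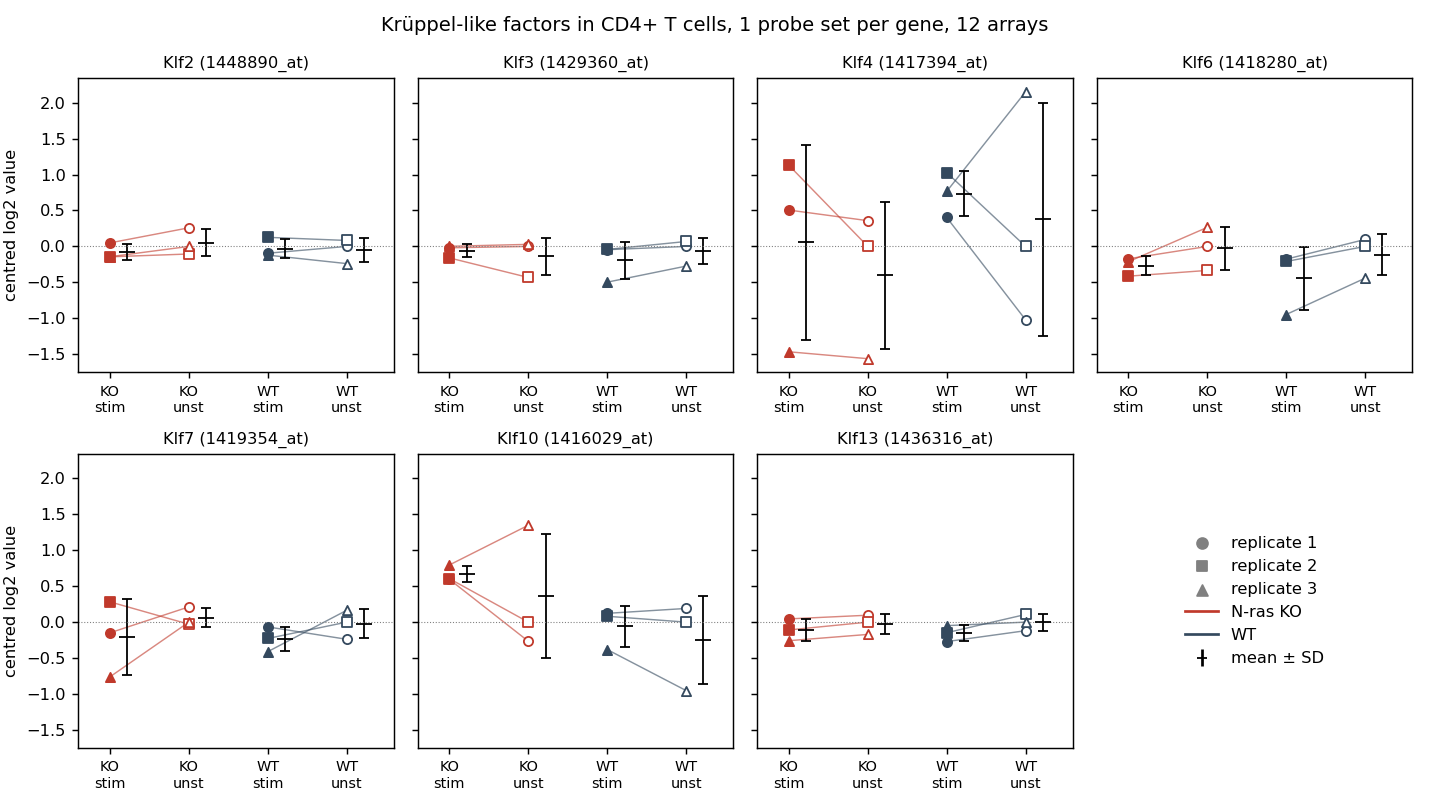
Centred log2 values of 1 probe set per gene on the 12 CD4+ T cell arrays, N-ras KO in red and WT in dark blue, stimulated filled and unstimulated open, with lines joining arrays of the same number and black marks for mean ± SD (n = 3). Klf2 and Klf13 stay between −0.27 and 0.26 on all arrays, all 6 lines of Klf6 slope the same way, and Klf4 and Klf10 differ more between replicates than between conditions.

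Klf3 had 7 probe sets, and the largest contrast between its genotypes was on 1421604_a_at. It read −0.03, −0.21 and 0.44 in stimulated and 0.00, −0.29 and 0.39 in unstimulated N-ras KO cells. In WT cells it read −0.29, −0.58 and −0.48 stimulated and 0.00, 0.18 and −0.23 unstimulated. In WT cells the 3 stimulated arrays lay below the 3 unstimulated ones without overlap, as was the case in either direction for 4.39% of all probe sets. The response was 0.03 in N-ras KO and −0.43 in WT cells (95% interval −0.98 to 0.11), and the difference between them was 0.47 (95% interval −0.30 to 1.23, adjusted p = 1.00 by limma), so a difference in response was not shown. The responses of its other 6 probe sets ran from −0.41 to 0.08 in N-ras KO and from −0.40 to −0.05 in WT cells.

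Klf7 responded by −0.27 to 0.14 in N-ras KO and −0.43 to −0.21 in WT cells over 4 probe sets, with 0 called. Klf10 read 0.59, 0.60 and 0.80 in stimulated and −0.27, 0.00 and 1.35 in unstimulated N-ras KO cells. In WT cells it read 0.12, 0.08 and −0.38 stimulated and 0.19, 0.00 and −0.95 unstimulated. Its responses of 0.30 in N-ras KO (95% interval −0.63 to 1.24) and 0.19 in WT cells (−0.74 to 1.13) were smaller than the unstimulated ranges of 1.61 and 1.14. Without N-ras KO replicate 3 and WT replicate 1 the responses were 0.73 (95% interval −0.16 to 1.63) and 0.33 (−0.57 to 1.22). The N-ras KO response was then above its unstimulated range of 0.27, but that range rests on fewer values. The share of all probe sets above such a range is not given. Klf10 was the 1 member higher after stimulation in all 4 remaining pairs, as on 7.09% of all probe sets. With the block and without the arrays of N-ras KO replicate 3 and WT replicate 1 the N-ras KO interval was 0.15 to 1.31. None of 11 TGF-β signalling genes was called in either genotype with all arrays.

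Klf13 read 0.05, −0.11 and −0.26 in stimulated and 0.10, 0.00 and −0.17 in unstimulated N-ras KO cells on 1436316_at. In WT cells it read −0.27, −0.15 and −0.05 stimulated and −0.12, 0.11 and 0.00 unstimulated. All 6 pairs were lower after stimulation, with responses of −0.08 in N-ras KO and −0.15 in WT cells, which are within the spread of the unstimulated arrays. Over all 23 probe sets, with all arrays, the response was smaller than the unstimulated range on 22 in each genotype, the exceptions being Klf7 1419354_at in N-ras KO and Klf3 1421604_a_at in WT cells. The share of all probe sets for which this held is not given, so the count is not a trait of the members.

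**Figure D4:**
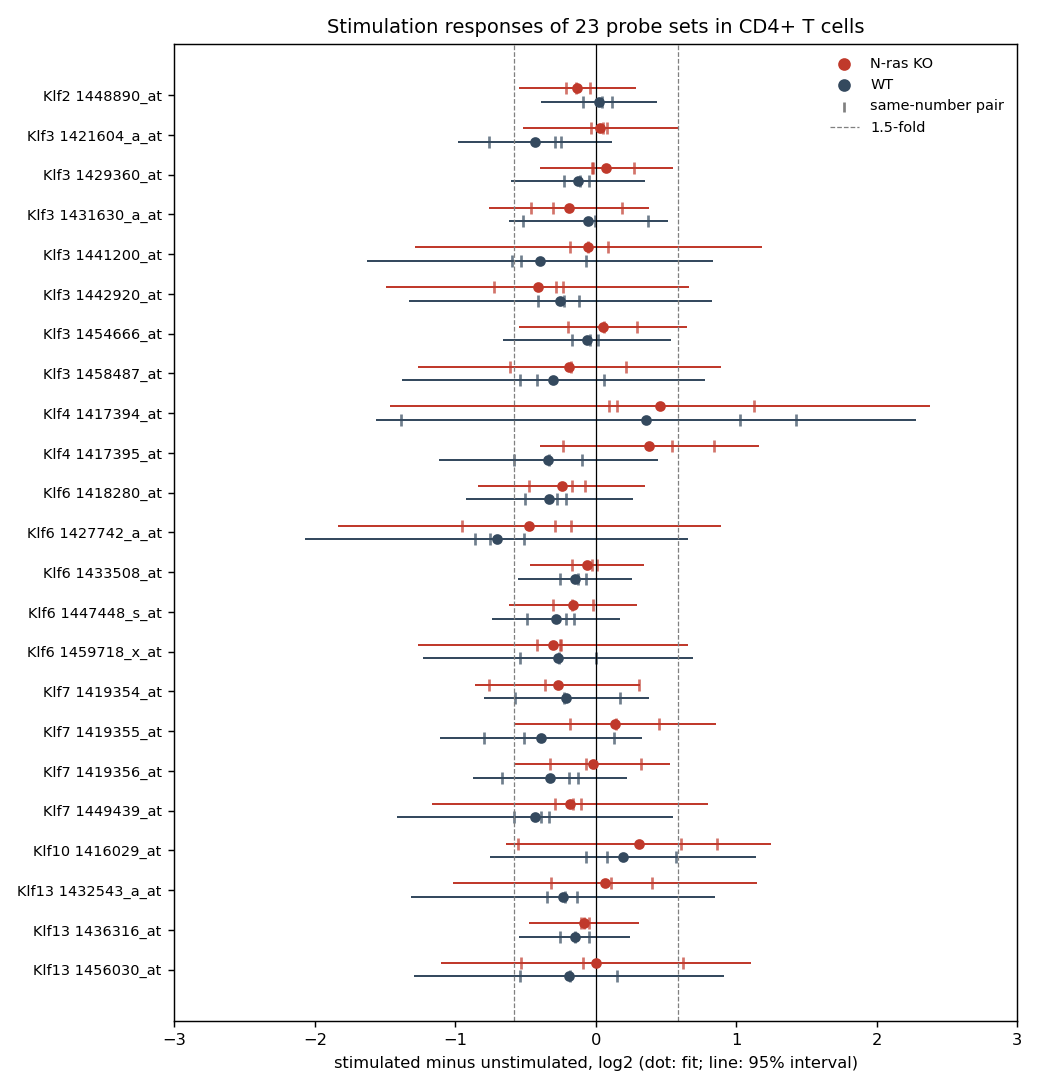
Stimulated minus unstimulated log2 difference for the 23 probe sets in N-ras KO (red) and WT (dark blue) CD4+ T cells, with limma 95% intervals as lines, the 3 same-number pairs as ticks and dashed lines at 1.5-fold. All intervals cross 0, the estimates run from −0.47 to 0.46 in N-ras KO and from −0.71 to 0.36 in WT cells, and 14 of 23 in N-ras KO and 20 of 23 in WT cells are below 0.

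The difference of the responses, N-ras KO minus WT, called 0 of 23 members, where 1.29% of all probe sets were called. It was above 0 on 18 of the 23, from −0.16 to 0.72, with a median of 0.11 beside 0.01 over all probe sets. The widest was Klf4 1417395_at (0.72, 95% interval −0.38 to 1.81, adjusted p = 1.00 by limma), and the narrowest interval belonged to Klf13 1436316_at (0.07, −0.48 to 0.61). A p above the threshold does not show that the genotypes responded alike.

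Among stimulated cells, N-ras KO minus WT called 1 of 23 members (4.35%), Klf4 1417395_at, where 6.9% of all probe sets were called. It read 0.54, 0.64 and 0.82 in stimulated N-ras KO and −0.33, 0.06 and −0.65 in stimulated WT cells, without overlap. The difference was 0.98 (95% interval 0.20 to 1.75, adjusted p = 0.59 by limma). That interval and p leave out the spread of the unstimulated baselines. The difference of the responses, which carries that spread, was 0.72 on this probe set and was not called. Unstimulated it read 0.00, 0.88 and −0.02 in N-ras KO and 0.00, 0.64 and −0.56 in WT cells. Without the arrays of N-ras KO replicate 3 and WT replicate 1 the difference was 0.89 and no longer called, and the call was also lost without stimulated N-ras KO replicate 3 (0.90), without stimulated WT replicate 3 (0.80) and after quantile normalization (0.85).

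The other Klf4 probe set pointed the other way. On 1417394_at stimulated N-ras KO minus stimulated WT was −0.68 (95% interval −2.59 to 1.24), and the correlation of the 2 probe sets over the 12 arrays was −0.37, as a description. They had pointed the same way in thymocytes. No direction can be given for Klf4 between the stimulated genotypes.

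**Figure D5:**
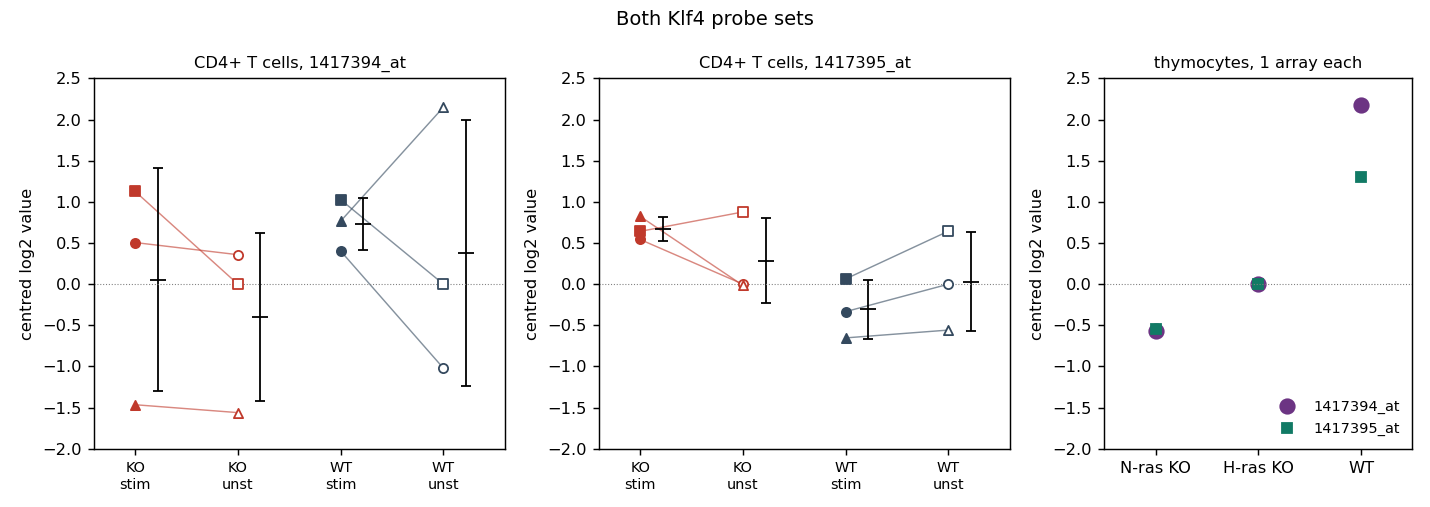
Centred log2 values of both Klf4 probe sets, on the 12 CD4+ T cell arrays (left and middle, N-ras KO in red and WT in dark blue, stimulated filled, lines joining same-number arrays, black marks mean ± SD, n = 3) and on the 3 thymocyte arrays (right). In stimulated cells 1417395_at is higher on every N-ras KO array (0.54 to 0.82) than on any WT array (−0.65 to 0.06), 1417394_at is not, and in thymocytes both are highest in WT.

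On 5 of the 23 probe sets (21.7%) values were higher on every stimulated N-ras KO array than on any stimulated WT array, as on 7.46% of all, and on 0 were they lower on every one, as on 6.28% of all. They were Klf3 1421604_a_at (0.52), Klf4 1417395_at (0.98), Klf7 1419355_at (0.52) and 1419356_at (0.53) and Klf10 1416029_at (0.72), as log2 differences, with adjusted p of 0.59 to 0.71 by limma. Neither the counts nor these p-values carry the spread of the unstimulated baselines. Without stimulated and unstimulated N-ras KO replicate 2 the count was 9, as on 14.7% of all probe sets. Without the arrays of N-ras KO replicate 3 and WT replicate 1 it was 6, as on 18% of all probe sets.

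Several gene lists moved with the comparison of stimulated cells. Granule genes of neutrophils and eosinophils were above 0 on 8 of 9 (median log2 difference 1.72, 2 called), with array means of −0.31 to 1.63 in stimulated N-ras KO and −1.88 to 0.32 in stimulated WT cells, which overlapped. B cell markers were above 0 on 5 of 5 (median 0.57, 1 called), with array means of 0.29 to 1.69 in stimulated N-ras KO and −0.54 to 0.66 in stimulated WT cells. T cell identity genes were below 0 on 6 of 7 (median −0.44, 0 called), with array means of −0.84 to 0.09 in stimulated N-ras KO and −0.19 to 0.43 in stimulated WT cells. Heat shock genes were below 0 on 6 of 8 (median −0.28, 1 called), and their array means did not overlap, at −0.52 to 0.11 in stimulated N-ras KO and 0.18 to 0.30 in stimulated WT cells. Erythroid markers were above 0 on 3 of 3 (median 0.27, 0 called). Their array means did not overlap either, at 0.08 to 0.45 in stimulated N-ras KO and −0.11 to 0.03 in stimulated WT cells. Other marker lists shifted as far, with 0 called in each. Monocyte and macrophage markers were below 0 on 5 of 8 (median −0.50) and dendritic markers on 3 of 5 (−0.48). CD8 and NK markers were below 0 on 5 of 6 (−0.40), and immature thymocyte genes above 0 on 4 of 4 (0.39). The medians stand beside 0.02 over all genes, and the part of these lists in the 5 probe sets was not tested.

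Unstimulated N-ras KO replicate 3 was the highest of its 3 arrays on 16 of the 23 member probe sets, against 49.4% of all probe sets, and unstimulated WT replicate 3 the lowest of its 3 on 16 of 23, against 51.1%. Over the 23 probe sets the stimulated and unstimulated arrays of one number correlated at 0.63 to 0.87. Without all arrays numbered 3, chosen after seeing these values, the responses called 1 member probe set in N-ras KO and 2 in WT cells. The matching shares of all probe sets are not given, so these counts are not a result about the members.

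Members did not move as a unit across the 12 arrays. Among leading probe sets the highest correlation was between Klf3 and Klf6 (r = 0.84) and the lowest between Klf4 and Klf10 (r = −0.72), as descriptions over arrays that share a replicate number. Probe sets of one gene also disagreed, from r = −0.43 to 0.94 among the 5 of Klf6 and from −0.37 to 0.91 among the 3 of Klf13. Of 18193 genes, the 4 most like Klf2 over the 12 arrays were Keap1, Mybpc1, Mucl1 and Acot12 (r = 0.87 to 0.88), those most like Klf4 on its probe set 1417394_at were Kdm5b, Bcdin3d, Med12 and P4htm (0.93 to 0.95), and those most like Klf10 were Scx, Hnrnpul1, Ucn and Sct (0.96 to 0.98). How high the top of so many correlations runs without any link was not tested, so these names show no relation. The Klf4 names do not stand for the gene, since its other probe set did not follow 1417394_at.

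Outside the 7 genes, 0 of 9 other Krüppel-like factor genes and 0 of 7 Sp factor genes were called in either response on their leading probe set. In stimulated cells 0 of the 9 and 1 of the 7, Sp8 (0.75), were called in N-ras KO minus WT. The 9 regulators upstream of Klf2, the 8 corepressors, the 4 coactivators and the 4 ubiquitin ligase genes that are known to act on these factors had 0 called members in either response.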

How the data were processed

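The log2 values used were those the authors deposited, made from the Affymetrix scans by RMA-16 with quantile normalization in GeneSpring GX and set relative to the median of control samples, which the values place at the unstimulated arrays of each genotype in CD4+ T cells and at all 3 arrays in thymocytes. The methods name only the smaller of 2 array types, although the CD4+ T cell values hold 45101 probe sets and the thymocyte values 22690. Probe sets were named through the platform annotation, which gave 1 gene for 34958 in CD4+ T cells, several for 932 and none for 9211. The number of arrays limits the precision. No file held counts or depths.

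CD4+ T cell comparisons were fitted with limma 3.58.1 (R 4.3.3) over all 12 arrays and 45101 probe sets, without a block, with Benjamini-Hochberg adjustment over all of them. A call needed an unadjusted p under 0.05 and 1.5-fold, the thresholds of the methods. Alternatives were the methods' t-test, quantile normalization, centring of arrays, a 2-fold threshold, the replicate number as a block, and arrays left out. The script was tested on simulated data. Thymocytes were compared as single arrays with no test. All probe sets of the 7 genes were reported. Of each other gene list the counts and up to 4 genes with the smallest p (thymocytes, the widest differences) were named, with a few further genes chosen after their values were seen. Monocyte, neutrophil, B cell, dendritic, CD8 and NK, erythroid, immature thymocyte and T cell identity markers were summarised in the same way. The genes described and the lists were chosen with earlier results of these data known.

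Among the marker lists, 0 of 8 monocyte, 0 of 9 granulocyte and 0 of 5 dendritic genes were called in the N-ras KO and WT responses. The same held for 0 of 6 CD8 and NK, 0 of 3 erythroid, 0 of 4 immature thymocyte and 0 of 7 T cell identity genes. Of 5 B cell genes 1 was called in N-ras KO cells, higher, and 0 were in WT cells. In thymocytes 0 of 5 dendritic, 0 of 6 CD8 and NK, 0 of 3 erythroid and 0 of 4 immature thymocyte genes reached 1.5-fold in N-ras KO, and 1, 1, 0 and 1 did in H-ras KO. Promoters were read from a RefSeq table on GRCm38.p6.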

Additional observations from a re-analysis of the deposited data

How the results depend on the processing

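Klf4 1417395_at between the stimulated genotypes and Klf6 1427742_a_at in the WT and mean responses kept their direction under every alternative. The other Klf4 probe set, 1417394_at, was not followed in this way. It pointed the other way between the stimulated genotypes, and its WT response changed sign without the arrays of N-ras KO 3 and WT 1. No direction can therefore be given for Klf4 as a gene. For stimulated N-ras KO minus stimulated WT, where 1 member probe set was called, the count was 2 by the methods' t-test and 2 by limma on the 2 groups alone, 0 after quantile normalization, 0 at 2-fold, 0 on lead probe sets only and 0 without the arrays of N-ras KO 3 and WT 1. With single arrays left out it ran from 0 (without stimulated N-ras KO replicate 3 or stimulated WT replicate 3) to 4 (without stimulated N-ras KO replicate 2), and was 2 without unstimulated N-ras KO replicate 3. The Klf4 1417395_at difference behind it ran from 0.80 to 1.16 with arrays left out. The N-ras KO response, at 0, ran from 0 to 1 with arrays left out (1 without unstimulated N-ras KO replicate 3), and the other 3 counts of calls in CD4+ T cells stayed at 0. Without all arrays numbered 3, chosen after seeing the data, 1 probe set was called in the N-ras KO response, 2 in the WT response, 1 in the mean response and 1 in the difference of responses. In stimulated N-ras KO minus stimulated WT the main fit called 6.9% of all probe sets. The shares under most of these alternatives are not given. The counts therefore show only how the calls moved, and not a trait of the members.

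With the replicate block by number within genotype 1 probe set was called in the WT response and 1 in the mean response, and neither of the other 2 counts changed. With the block and without the arrays of N-ras KO 3 and WT 1, added after seeing the data, 1 was called in the N-ras KO response (Klf10), 1 in the WT response (Klf6 1427742_a_at) and 0 in each of the other 2. Klf6 1427742_a_at ran from −1.0 to −0.33 in the WT response and from −0.81 to −0.25 in the mean response with arrays left out. The block within genotype could not be fitted for the comparison of stimulated cells. With the replicate number as a block across genotypes 1 member probe set was called there, again Klf4 1417395_at (0.98). The t-test was not applied to the mean response or to the difference of responses. Same-number arrays of the 2 genotypes did not deviate together (r = −0.23, −0.27 and −0.62, unstimulated). Of 23 member probe sets, 7 were lower in every same-number pair, 3 after quantile normalization and 7 to 10 with each pair left out, beside 2.13%, 1.12% and 3.58% to 4.05% of all probe sets. The count with every stimulated N-ras KO array above every stimulated WT array, 5, ran from 5 to 9 with each replicate left out, beside 7.46% and 10.6% to 14.7% of all. In thymocytes the counts of 6 became 3 and 3 on lead probe sets only, since 1 probe set a gene was then counted.

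The arrays give 3 values a group in CD4+ T cells and 1 in thymocytes. Because all values are distances from a median, brightness over background, and with it whether a member was expressed, could not be read. For most of the 23 probe sets the 95% intervals in CD4+ T cells reach past 1.5-fold.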
